A study of Homo sapiens with 8 samples.

Results

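The replication-dependent histone genes are 72 of the 20263 genes in the deposited table, taken by gene symbol alone, as every symbol that begins with HIST1H, HIST2H, HIST3H or HIST4H. They comprise 6 genes of the linker histone H1 and, for the core histones, 17 genes of H2A, 18 of H2B, 16 of H3 and 15 of H4. In the GRCh38 positions of the table, 56 lie in the HIST1 cluster on chromosome 6 (25726132 to 27893843), 12 in HIST2 and 3 in HIST3 on chromosome 1, and 1, HIST4H4, on chromosome 12. One symbol, HIST1H3D, stands for 2 gene identifiers; the second, ENSG00000282988, is named AL031777.3 in the GENCODE 29 annotation and overlaps both HIST1H2AD and the first HIST1H3D.

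The cells were MHCC-97H, a line established from human liver cancer, kept for 24 hours in the solvent DMSO or in lenvatinib, a small-molecule inhibitor of several receptor tyrosine kinases. There were 8 RNA-seq libraries, 4 of DMSO cells (DMSO1 to DMSO4) and 1 each of cells given 40, 60, 80 and 100 µM lenvatinib. The series asks how the transcriptome of the treated cells differs from that of the parental cells. No label says whether the DMSO cells were separate cultures, so p-values measure only the spread between these libraries, and a difference at 1 dose has no replicate of its own.

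These genes supply the histones that package newly replicated DNA, and in dividing cells their mRNA rises as S phase begins and is degraded when replication stops. Their transcription is organised at the histone locus body by NPAT, a substrate of cyclin E and CDK2. Their mRNA usually has no intron and no poly(A) tail: it ends just after a stem-loop that is bound by SLBP and cut with the help of the U7 snRNP. Some members also give polyadenylated transcripts that read through the stem-loop. Variant histones such as H2AFZ and H3F3B come from other, polyadenylated genes that are used outside S phase.

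The stem-loop is shown because it sets the 3′ end of these mRNAs. The letters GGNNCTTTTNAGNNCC were searched on the transcript strand of the GENCODE 29 models (GRCh38), and 32 of the 72 members held a match, against 28 of 20152 other genes (0.139%). The most frequent form was found in 18 members (6 H2A, 8 H2B, 4 H3), and a form that ends its loop in A in 5 (3 H2B, 2 H3). H4 genes had their own forms, in 5 and 3 members, and HIST1H2AG had 1 of its own. No H1 model extended to a match. Each is given 5′ to 3′ as DNA with the 6 bases of each stem arm in capitals and the 4-base loop in lower case.
most frequent form: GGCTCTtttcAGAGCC
loop ending in A: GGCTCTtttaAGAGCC
H4 form, loop ending in C: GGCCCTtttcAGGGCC
H4 form, loop ending in T: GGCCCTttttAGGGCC
HIST1H2AG: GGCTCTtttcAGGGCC

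The promoters are shown because members of a class share elements there. RefSeq sequence (GRCh38.p14) from 250 bases before to 50 after the transcription start was found for 66 members, counting starts within the gene or up to 200 bases before it, and 22 of these windows overlap that of another member. Motifs were searched on both strands; the motifs do not contain one another. CCAAT was present in 56 of 66 windows, including every H1, H2A, H2B and H3 window but only 3 of 13 for H4; 34.6% of all 35116 promoters held it. TATAAA was in 45 of 66 (11.5% of all promoters). The octamer ATTTGCAT was in 11 of 16 H2A and 14 of 18 H2B windows, and in no H1, H3 or H4 window (1.77% of all promoters). AAACACA, the H1 box, was in 6 of 6 H1 windows, 1 H2A and 2 H3 windows (5.64% of all promoters). A match is a string of letters and not a measured binding site. The 250 bases before the start are given for 1 member a class, H2A apart, with all matches on either strand in capitals. HIST1H1E carries the H1 box at position -117 and TATAAA at -29 from the start, HIST1H2BK the octamer at -49, HIST1H3B TATAAA at -32 and HIST1H4K TATAAA at -31.
HIST1H1E (chr6:26156079-26156328, plus strand): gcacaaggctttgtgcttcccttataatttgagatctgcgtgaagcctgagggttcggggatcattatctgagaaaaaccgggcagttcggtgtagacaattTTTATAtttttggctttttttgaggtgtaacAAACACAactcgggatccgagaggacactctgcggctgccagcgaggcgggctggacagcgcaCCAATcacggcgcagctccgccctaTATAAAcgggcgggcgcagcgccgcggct
HIST1H2BK (chr6:27146856-27147105, minus strand): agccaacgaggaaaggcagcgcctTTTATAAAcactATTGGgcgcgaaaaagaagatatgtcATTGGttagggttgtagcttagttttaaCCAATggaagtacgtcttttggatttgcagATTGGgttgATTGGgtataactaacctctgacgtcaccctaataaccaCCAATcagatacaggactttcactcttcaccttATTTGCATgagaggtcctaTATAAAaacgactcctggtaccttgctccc
HIST1H3B (chr6:26032100-26032349, minus strand): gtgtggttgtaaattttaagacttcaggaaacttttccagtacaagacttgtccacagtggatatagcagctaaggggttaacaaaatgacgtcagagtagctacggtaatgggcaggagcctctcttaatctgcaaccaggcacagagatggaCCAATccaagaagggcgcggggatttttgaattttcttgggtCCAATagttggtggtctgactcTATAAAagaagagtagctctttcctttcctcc
HIST1H4K (chr6:27831561-27831810, minus strand): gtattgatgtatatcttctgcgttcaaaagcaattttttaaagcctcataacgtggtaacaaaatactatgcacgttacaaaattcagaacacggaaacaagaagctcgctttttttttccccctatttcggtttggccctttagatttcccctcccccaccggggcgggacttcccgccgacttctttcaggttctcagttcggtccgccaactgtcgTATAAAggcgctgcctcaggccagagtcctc

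One library stood apart before any histone gene was considered. The 60 µM library had 10181973 counts, against 30077668 to 37384578 in the other 7, and reads for 11076 genes, against 13290 to 14340. Its log2 values, relative to the mean of the libraries, were higher by 1.81 for each 10 percentage points of transcript GC content; this GC slope lay between -0.99 and 0.67 in the others. Of 12 hepatocyte markers, 3 (HNF4A, KRT8, KRT18) averaged at least 1 CPM (counts scaled to the library total) and 8 had 10 reads or fewer in all libraries together, so the defining secreted liver proteins were nearly undetected. All reads of ALB (6), APOA1 (10), AFP (2), TF (4) and the duct marker KRT19 (4) fell in the 60 µM library. Of 12 markers of blood, endothelial, stromal and duct cells, 5 averaged at least 1 CPM: PDGFRB, COL1A1, ACTA2, CD68 and VWF. Their DMSO means were 37.4, 26.8, 9.45, 8.2 and 1.9 CPM, against 8.41 for HNF4A. PTPRC, CD3E and LYVE1 had no read. The edgeR comparisons with DMSO, without and with the GC covariate, are given with and without the 60 µM library. The offset, DESeq2 and GC-adjusted dose slope fits were run only with it included.

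Histone transcripts were scarce in 7 of the 8 libraries and several-fold higher in the 60 µM library. Reads on the 72 members made up 0.0331% to 0.0442% of all counts in those 7 and 0.195% at 60 µM (95% Wilson interval 0.192% to 0.198%, counting error only). Summed over all members, the deposited TPM (transcript abundance scaled for gene length) was 1101, 1152, 962 and 1062 in DMSO1 to DMSO4. It was 1255, 5110, 1249 and 1170 at 40, 60, 80 and 100 µM. The 60 µM sum was 4.78 times the DMSO mean of 1069 ± 80.5 (SD, n = 4), while the other 3 lenvatinib sums were 1.09 to 1.17 times that mean. On CPM scaled by TMM (edgeR's library size correction), which are not scaled for length, the ratios to the DMSO mean were 1.56, 8.88, 0.958 and 0.937 at the same doses. The direction at 80 and 100 µM therefore turned with the scaling, and the direction at 40 and 60 µM did not. More cells in S phase and more histone mRNA in each cell cannot be told apart in bulk RNA. Neither can be told apart here from the depth and GC slope of the 60 µM library.

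All 5 classes were highest at 60 µM, but by unequal factors. Against the DMSO mean, summed TPM at 60 µM was 26.3 times as high for H3, 9.90 times for H4, 6.73 times for H2A, 3.04 times for H1 and 1.99 times for H2B. The H1 and H2B factors rest on HIST1H1C and HIST1H2BK: without the 8 members that also give polyadenylated mRNA, they were 20.9 for H1 and 7.76 for H2B, against 26.3 for H3, 9.52 for H4 and 7.18 for H2A. In the other 7 libraries H2B supplied most of the histone TPM (48.6% to 53.7%) and H3 least (3.28% to 5.16%); at 60 µM H2B made up 21.1% and H3 21.5%. A pair of genes, HIST1H2BK and HIST1H1C, held 54.4% to 60.5% of all member TPM in those 7 libraries and 17.3% at 60 µM.

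**Figure D1:**
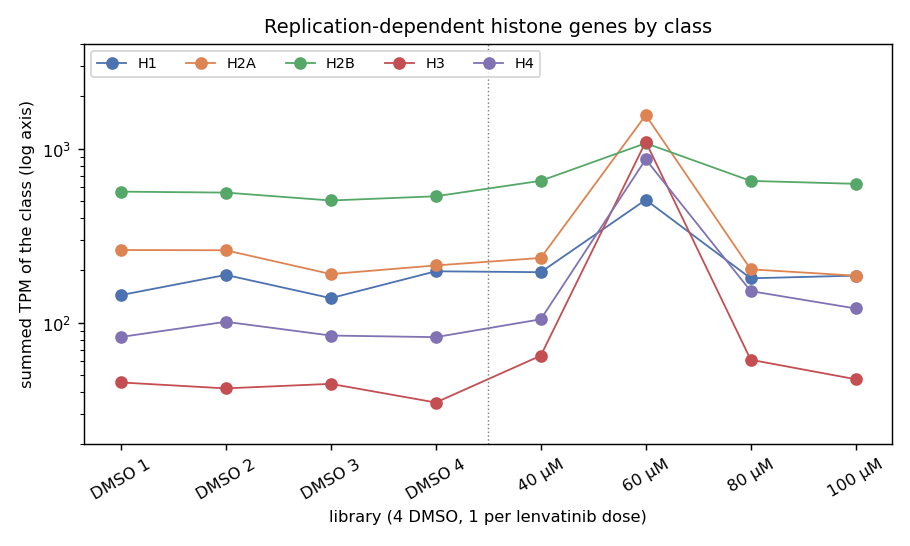
Summed deposited TPM (log axis) of each histone class in the 4 DMSO libraries and the lenvatinib library at each dose; each point is 1 library. All 5 lines peak at 60 µM, where H3 reaches 1097 against 34.8 to 45.4 in DMSO, and the sums at the other 3 doses lie from 0.804 to 1.73 times the DMSO mean.

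The summed factor was smaller for members known also to give polyadenylated mRNA. That list of 8 (HIST1H1C, HIST1H2AC, HIST1H2BC, HIST1H2BD, HIST1H2BJ, HIST1H2BK, HIST2H2BE and HIST4H4) summed to 688 ± 45.3 TPM in DMSO (SD, n = 4) and 1239 at 60 µM, 1.80 times as high. The other 64 members summed to 382 ± 42.2 TPM in DMSO and 3871 at 60 µM, 10.1 times as high. The list was not uniform: on CPM, HIST1H2BK was 2.27 times the DMSO mean at 60 µM and HIST4H4 41.1 times, and HIST1H2BK alone supplied 447 of the 688 TPM in DMSO. By median log2 ratio per gene at 60 µM the list was lower before the offsets for GC content and length described further on (2.30, against 4.52 for the other 45 tested members) and not lower after them (3.38 against 3.07). Some of these members averaged 1 CPM only through the 60 µM library. Over those that do so without it (7 of the list and 27 others), the list was lower before the offsets (2.18 against 3.72) and after them (3.01 against 3.65). How the libraries were selected for RNA type (poly(A) capture or depletion of ribosomal RNA) is not given in the sources used here, and its part in these ratios was not tested. None of the 14 other RNAs without poly(A) tails that were listed (such as RN7SK and RMRP) is in the table, so they give no comparison.

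H1 genes bind the linker DNA between nucleosomes. Of 6, 3 passed the filter of a mean of 1 CPM, and HIST1H1C (H1.2) carried most of the reads. HIST1H1C measured 63.3, 55.4, 34.1 and 73.6 CPM in DMSO1 to DMSO4, and 94.8, 224, 48.9 and 52.3 at 40, 60, 80 and 100 µM. Its 2 higher doses lay inside the DMSO range and its 2 lower doses above it. HIST1H1E (H1.4) measured 3.44, 2.86, 0.600 and 2.53 CPM in DMSO, and 5.00, 86.1, 0.898 and 0.634 at 40, 60, 80 and 100 µM. It was thus far above the other libraries at 60 µM and within the DMSO range at 80 and 100 µM, where DMSO3 was as low. HIST1H1T, the testis H1, had 1 library with any read.

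H2A genes encode a core histone of the nucleosome, and 15 of 17 were tested. The highest by TPM were HIST2H2AA3 and HIST2H2AA4, neighbouring copies on chromosome 1. All 549 bases of the HIST2H2AA3 transcript occur in HIST2H2AA4, so how reads were split between them is uncertain. Together they measured 70.3, 44.1, 25.6 and 49.5 CPM in DMSO, and 65.0, 378, 26.0 and 26.1 at 40, 60, 80 and 100 µM. The 80 and 100 µM values lay close to that of the lowest DMSO library. HIST1H2AC went against the rest of the family: it measured 17.0, 19.8, 9.14 and 9.31 CPM in DMSO, and 21.8, 14.8, 26.2 and 14.3 at 40, 60, 80 and 100 µM. It was the single tested member whose highest library was not the 60 µM one. Its TPM was 9.12 at 60 µM, the lowest of its 8 libraries. HIST1H2AA and HIST1H2AK had no read in any library; a count of 0 allows up to 3 reads, or 0.0802 CPM in the deepest library and 0.295 CPM at 60 µM.

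H2B genes pair with H2A in the nucleosome, and 14 of 18 were tested. HIST1H2BK was the most abundant histone gene by TPM, at 483, 451, 403 and 453 in DMSO and 565, 547, 547 and 525 at 40, 60, 80 and 100 µM. By TPM all 4 lenvatinib libraries lay above the DMSO range. By CPM they did not: it measured 134, 84.2, 60.1 and 105 in DMSO, and 175, 217, 89.9 and 89.1 at 40, 60, 80 and 100 µM. HIST1H2BD measured 15.4, 14.2, 11.1 and 12.6 CPM in DMSO, and 14.1, 61.9, 14.6 and 13.1 at 40, 60, 80 and 100 µM, so that it lay outside the DMSO range at 60 µM alone. HIST2H2BE was likewise far above DMSO at 60 µM alone, with 14.5 to 17.3 in DMSO, 86.7 at 60 µM and 13.1, 12.8 and 14.6 at 40, 80 and 100 µM. The 40 and 80 µM values lay just under the DMSO range. HIST1H2BC reached 43.9 CPM at 60 µM against 1.20 to 1.52 in DMSO, and HIST1H2BJ 47.3 against 2.52 to 6.12. HIST1H2BH was above the DMSO range at every dose: 1.59, 1.52, 1.85 and 1.87 CPM in DMSO, and 2.91, 13.7, 2.51 and 3.35 at 40, 60, 80 and 100 µM.

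H3 genes encode the core histone whose tail carries many regulatory marks, and 10 of 16 identifiers were tested. They were scarce elsewhere, and the class had the largest factor at 60 µM on these unadjusted levels. After the GC and length offsets its median log2 ratio at 60 µM was 3.92, against 3.99 for H4. Over the members that pass the filter without the 60 µM library, H3 was highest after the offsets. There its median was 3.97 (7 genes), against 3.74 for H2B (10 genes) and 3.65 for H4 (7 genes). HIST1H3C, which encodes H3.1, measured 1.27, 0.393, 0.480 and 0.535 CPM in DMSO, and 2.65, 104, 0.647 and 0.521 at 40, 60, 80 and 100 µM. HIST1H3B, another H3.1 gene, measured 0.576 to 1.45 CPM in DMSO, and 3.29, 97.8, 1.25 and 0.792 at 40, 60, 80 and 100 µM. Both were above the DMSO range at 40 and 60 µM and inside it at the higher doses. HIST1H3H measured 2.72, 3.37, 3.17 and 2.50 CPM in DMSO and 4.49, 78.5, 4.32 and 4.01 at 40, 60, 80 and 100 µM, above the DMSO range at every dose. HIST2H3A and HIST2H3C, whose annotated transcripts of 1656 bases are identical, summed to 4.44 to 5.61 CPM in DMSO, and 11.5, 264, 5.45 and 4.89 at 40, 60, 80 and 100 µM.

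H4 genes encode nearly one and the same protein from many copies, and 11 of 15 were tested. HIST1H4K measured 2.72, 1.46, 0.720 and 1.64 CPM in DMSO, and 3.68, 63.1, 1.02 and 1.11 at 40, 60, 80 and 100 µM. HIST4H4 measured 0.216 to 1.05 CPM in DMSO, and 1.84, 31.2, 0.627 and 0.272 at 40, 60, 80 and 100 µM. Both followed the H3 pattern, with 40 and 60 µM above the DMSO range and the higher doses inside it. HIST2H4A differed: it measured 14.4, 14.7, 16.8 and 16.4 CPM in DMSO, and 17.6, 89.1, 27.6 and 21.9 at 40, 60, 80 and 100 µM, all 4 doses above the DMSO range. The whole 1547-base transcript of HIST2H4A occurs within that of HIST2H4B. Summed over this pair of copies, CPM was 23.6, 28.7, 26.1 and 35.5 in DMSO, and 28.3, 176, 48.2 and 50.7 at 40, 60, 80 and 100 µM, so the sum at 40 µM fell inside the DMSO range. HIST2H4A also overlaps HIST2H3C on the opposite strand, and without a stated strand setting their reads cannot be told apart.

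**Figure D2:**
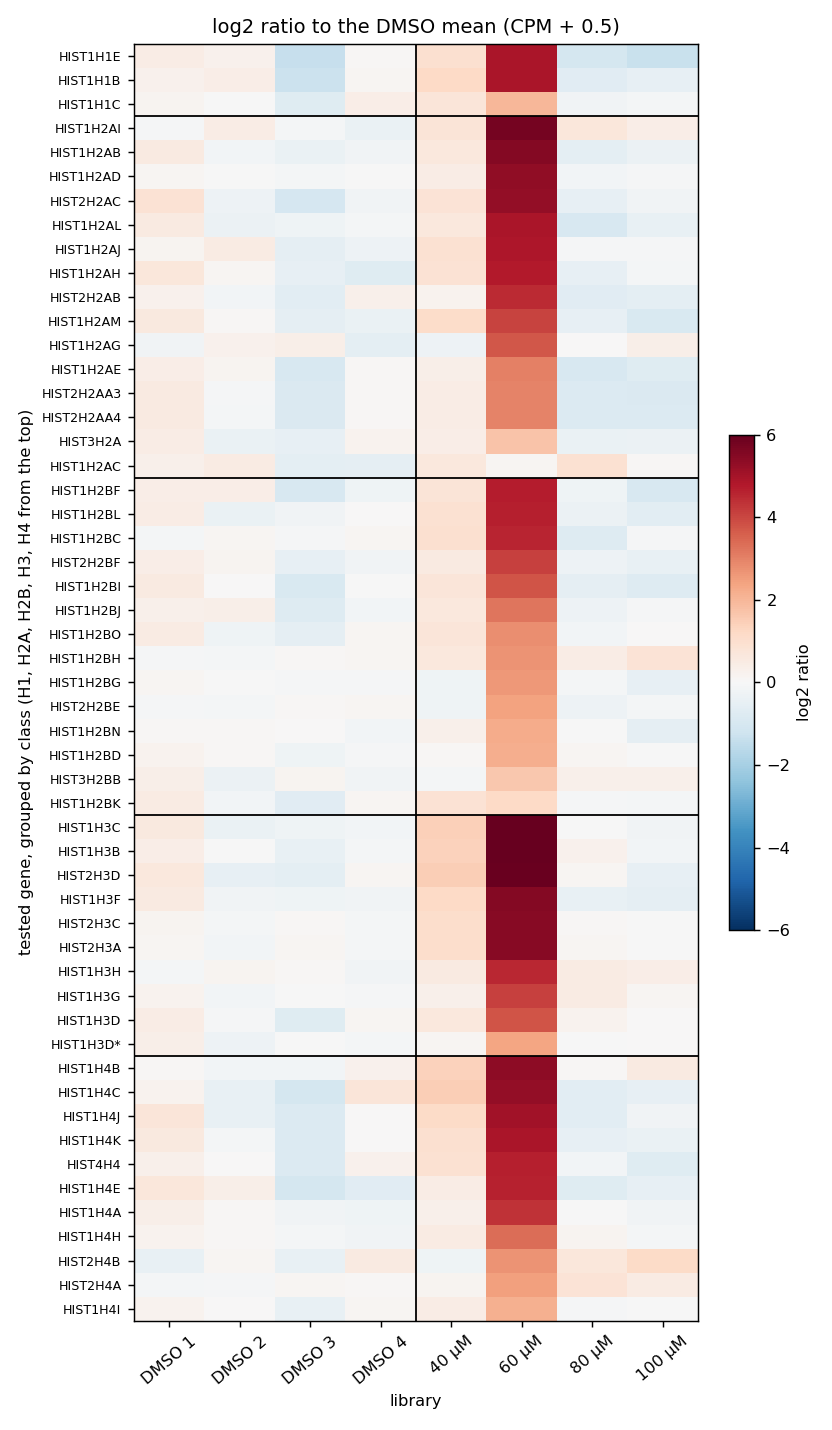
Colour gives the log2 ratio of CPM + 0.5 to the DMSO mean for each of the 53 tested histone genes (rows, ordered within class by the 60 µM ratio) in each library (columns); the asterisk marks the second identifier of HIST1H3D. All 53 ratios are above 0 at 60 µM, and HIST1H2AC, at 0.10, is nearly white. Genes that pass the filter only through the 60 µM library had to be high in it.

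Across the family, 60 of the 65 members with any read were highest in the 60 µM library. Among the 53 tested members it was 52, against 31.4% of the 11827 genes tested. In that library 52 of the 53 were at least 2-fold above the DMSO mean (22.7% of all genes) and none was at least 2-fold below it (45.6%). Because 19 of the 53 passed the filter only through that library, they had to be high in it. Over the 34 that pass without it, 33 were at least 2-fold above, against 22.3% of the 11864 genes that pass in the same way. Their median log2 ratio at 60 µM was 3.12, against -0.70 for those genes.

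No histone gene passed the test of the 4 lenvatinib libraries against the 4 DMSO libraries. In edgeR's quasi-likelihood test with Benjamini-Hochberg adjustment over the 11827 genes, 0 of 53 were called higher or lower at an adjusted p under 0.05. The background was the same, 0.0% of all genes in each direction. In this test 523 of the 11827 genes had an unadjusted p under 0.05. That share is below 0.05, the share expected with no difference. Every member had a positive log2 fold change, from 0.48 to 5.72 with a median of 2.95, against -0.11 over all genes, but with an edgeR adjusted p of 0.874 throughout. Only 34 of the 53 pass the filter without the 60 µM library. The others had to be high in it, so their positive values were built into the filter. HIST1H3C had a log2 fold change of 5.32 ± 1.82 (SE) and HIST1H2BK of 0.57 ± 0.40. DESeq2 called 0 members as well, against 0.499% of genes higher and 0.296% lower, but for 41 of the 53 it gave no adjusted p. Those 41 are among the 67 genes of 11827 that it left without one, so its count says little about them.

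Without the 60 µM library the fold changes were small in every class. The 34 members tested had a median log2 fold change of 0.23 (from -0.37 to 0.88), against -0.03 over 11864 genes, and 0 were called (0.0% of all genes in each direction). By class the medians were 0.54 for 7 H3 genes, 0.24 for 7 H4 genes, 0.12 for 10 H2B genes, 0.04 for 2 H1 genes and 0.01 for 8 H2A genes. All 7 H3 genes had positive values. With the 80 and 100 µM libraries alone against DMSO, the median over 35 members was -0.03, against -0.01 over 11914 genes, and 0 were called (0.0%).

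Adjusting for GC content removed most of the difference when it was done with a covariate and left most of it when it was done with offsets. The members are GC-rich and short: over the 53, median GC content was 57.7% and median longest transcript 642 bases, against 49.1% and 3688 bases for the other genes tested. In the edgeR fit that adds the GC slope of a library as a covariate, the median log2 fold change was 0.13 (from -1.06 to 1.96), against -0.06 over all genes, and 31 members were positive and 22 negative. No member was called, against 1.48% of genes called higher and 1.8% lower. DESeq2 with the same covariate called 1, HIST1H4B, at 2.06 ± 0.72 (SE, adjusted p = 0.0305), against 6.79% of genes higher and 10.5% lower. By class the medians were 0.54 for H3, 0.21 for H4, -0.06 for H2B, -0.15 for H2A and -0.26 for H1. In that fit the 60 µM library has a leverage of 0.701, so the covariate is largely set by it.

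Offsets fitted per library as a smooth function of GC content and transcript length, which use the trend over genes and not a term per gene, gave another picture. After them the median over the 53 members was 2.10, against 0.09 over all genes, and 51 of 53 were positive. None was called, against 0.0676% of genes called higher and 0.093% lower. At 60 µM alone, 47 members remained at least 2-fold above the DMSO mean, against 27.5% of all genes, and 1, HIST1H2BK, was at least 2-fold below it, against 13.9%. Only 34 of the 53 pass the filter without the 60 µM library. The rest had to be high in it, so these counts are in part built into the filter. The median log2 ratio at 60 µM was 4.33 before and 3.07 after the offsets (all genes, -0.68 and 0.29), and for the 34 genes that pass without that library it was 3.59 after. HIST1H1C went from 1.97 to 0.36, HIST2H2AA3 from 2.98 to 0.70 and HIST1H2BK from 1.18 to -1.32. HIST1H3C went from 6.48 to 4.18, and HIST4H4 from 4.65 to 6.90.

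**Figure D3:**
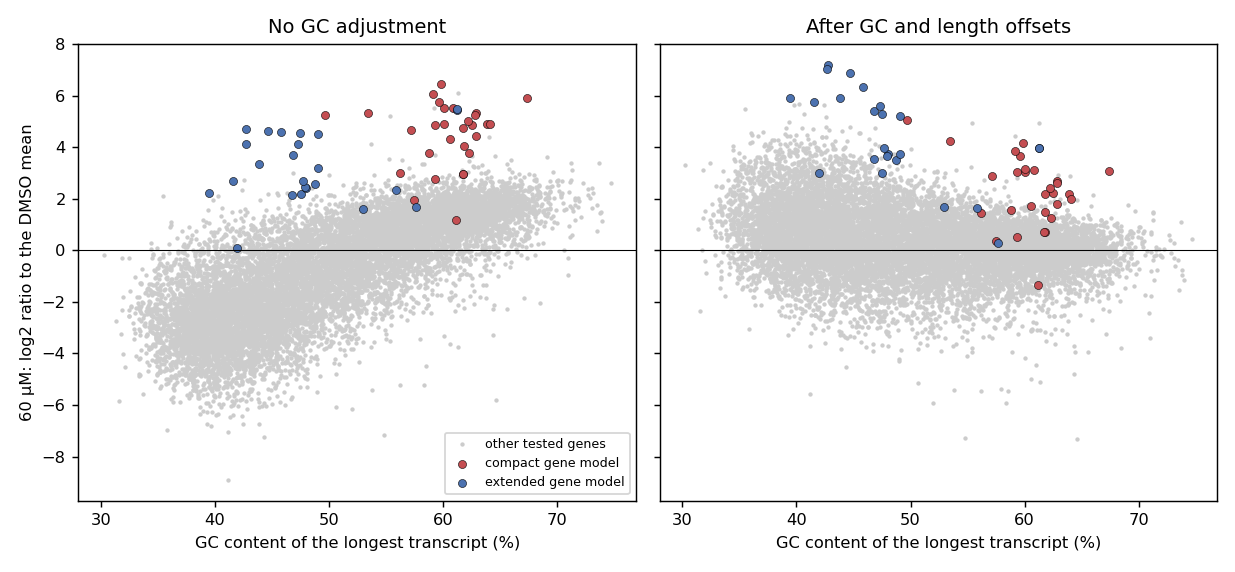
log2 ratio of the 60 µM library to the DMSO mean against transcript GC content, before (left) and after (right) offsets for GC content and length; each point is 1 tested gene, grey for genes outside the family. Most histone genes lie above the grey cloud on the left, with a median of 4.33, and 52 of 53 stay above 0 on the right. Members that pass the filter only through the 60 µM library had to be high in it.

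Among the DMSO libraries the GC slope and the level of the compact histone genes also moved together. Compact gene models have 1 exon and either no stem-loop match or at most 200 bases after it. For the 29 tested members with such models, the median log2 ratio to the DMSO mean was 0.48 in DMSO1, -0.11 in DMSO2, -0.59 in DMSO3 and 0.03 in DMSO4. The GC slopes of those libraries were 0.28, -0.50, -0.99 and -0.09, in the same order from high to low. In the lenvatinib libraries the medians were 0.86, 4.88, -0.47 and -0.33 at 40, 60, 80 and 100 µM, and the slopes 0.67, 1.81, -0.57 and -0.60. All 29 were below the DMSO mean in DMSO3, and 28 were above it in DMSO1. After the offsets the DMSO3 median was 0.33 and the DMSO1 median -0.37. The other 24 tested members had medians before the offsets of 0.20, 0.04, -0.07 and -0.13 in DMSO1 to DMSO4, not in the order of the slopes. Over all 53 the medians were 0.33, -0.03, -0.45 and -0.05, in nearly that order. The part of the GC slope in the 60 µM values was not tested beyond these adjustments.

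Gene models split the family, a division made after the values were seen and given as a description. Of the tested members, 24 have extended models (a transcript with more than 1 exon, or one that runs over 200 bases past the stem-loop) and 29 compact ones. Over all members, tested or not, median GC content was 47.5% for the 27 extended models and 60.1% for the 45 compact ones. At 60 µM the compact genes had the higher median log2 ratio before the offsets, 4.88 against 2.96, and the lower one after, 2.24 against 3.99. Of the compact genes 13 pass the filter without the 60 µM library, and of the extended ones 21. Over these the medians were 3.80 and 2.71 before the offsets, and 1.46 and 3.99 after. GC content was taken from the longest transcript, and gene counts do not say whether reads came from it or from the short form. Across the 53 genes, GC content and the 60 µM ratio had a Pearson r of 0.44 before and -0.71 after the offsets (Spearman rho 0.48 and -0.63). Over the 34 that pass without the 60 µM library r was 0.37 and -0.73 (rho 0.36 and -0.67); the points share the library, and genes are not independent replicates.

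A few single members differed from DMSO once the 60 µM library was left out and GC slope was in the fit. In edgeR's test of 3 lenvatinib against 4 DMSO libraries, 4 of 34 members were called, 2 higher and 2 lower, against 9.65% of genes higher and 13.7% lower. HIST1H2BH was higher by 0.80 ± 0.23 on the log2 scale (SE, edgeR, adjusted p = 0.0342) and HIST2H4A by 0.57 ± 0.13 (adjusted p = 0.0153). HIST2H2AA3 (-0.49 ± 0.11, adjusted p = 0.0124) and HIST2H2AA4 (-0.48 ± 0.11, adjusted p = 0.0123) were lower, and as copies they count as 1 result. HIST1H3H just missed (0.57 ± 0.19, adjusted p = 0.0563). The members' share called is below the background in both directions.

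With the 80 and 100 µM libraries alone and GC slope in the fit, edgeR called 4 of 35 members, against 9.74% of genes higher and 11.1% lower. HIST2H4A (0.67 ± 0.14 SE, adjusted p = 0.0145) and HIST1H2BK (0.23 ± 0.07, adjusted p = 0.0451) were higher. HIST2H2AA3 (-0.47 ± 0.13, adjusted p = 0.0378) and HIST2H2AA4 (-0.46 ± 0.12, adjusted p = 0.0381) were lower again. HIST1H2BH (0.78 ± 0.26) had an adjusted p of 0.0712. HIST2H4A and the HIST2H2AA pair were thus called in both of these fits, which share the DMSO, 80 µM and 100 µM libraries. HIST2H4B, whose transcript holds that of HIST2H4A, was called in neither, and how reads were split between them is uncertain. Over all 8 libraries, 3 members lay above the DMSO range in all 4 lenvatinib libraries (HIST1H2BH, HIST1H3H and HIST2H4A), against 3.08% of genes, and 0 lay below, against 3.38%. Summed with HIST2H4B, HIST2H4A was inside the DMSO range at 40 µM (28.3 CPM, against 23.6 to 35.5).

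**Figure D4:**
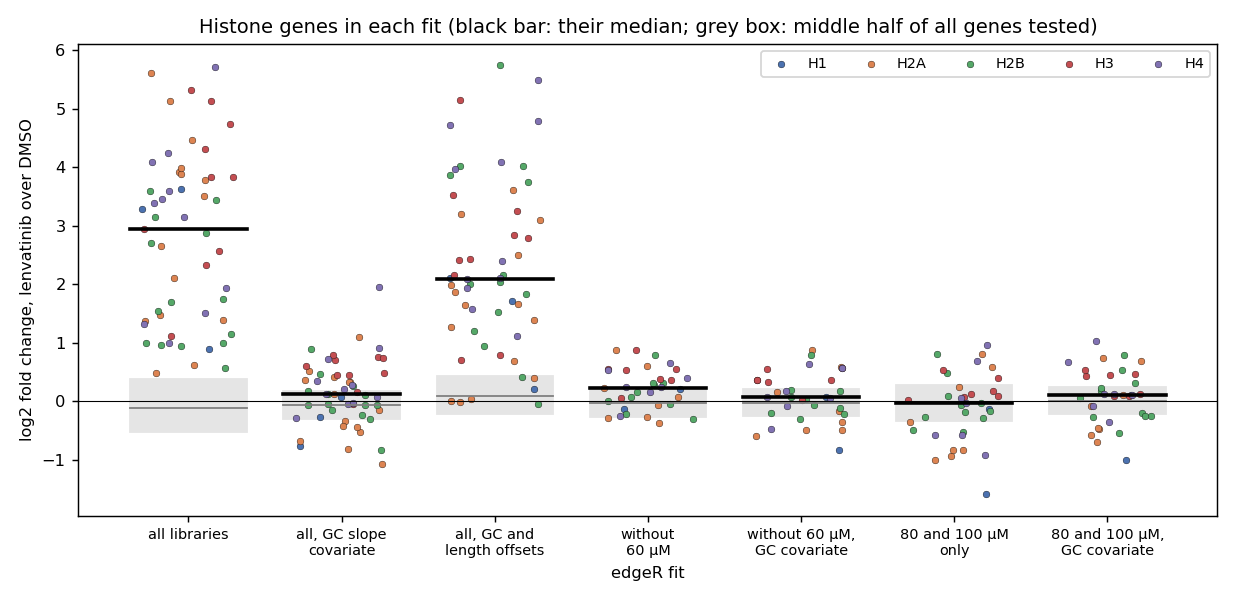
log2 fold change of lenvatinib over DMSO for each histone gene (points, coloured by class) in 7 edgeR fits; the black bar is the members' median, the grey box and line the quartile range and median of all genes tested. The members' median is 2.95 with all libraries, 0.13 with the GC slope as a covariate and 2.10 with offsets (53 members each), and 0.23 without the 60 µM library (34 members). The members that pass the filter only through the 60 µM library had to be high in it.

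At 40 µM the histone genes were mildly above DMSO, and after the offsets their median was not, with gene models and classes on both sides. The median log2 ratio of the 53 members was 0.64 (all genes, -0.08), with 11 at least 2-fold above the DMSO mean, against 5.72% of genes, and 0 at least 2-fold below, against 27.1%. Of these 11, 6 were H3 genes (HIST1H3B, HIST1H3C, HIST1H3F, HIST2H3A, HIST2H3C and HIST2H3D), 3 were H4 genes (HIST1H4B, HIST1H4C, HIST1H4J), and the others HIST1H1B and HIST1H2AM. Of the 34 that pass without the 60 µM library, 23 lay above the DMSO range at 40 µM, against 33.9% of genes. After the offsets the median at 40 µM was -0.12 (all genes, 0.03), with 7 members at least 2-fold above, against 7.49%, and 2 at least 2-fold below (HIST1H4A and HIST2H2AB), against 8.96%. The 24 extended models then had a median of 0.40 and the 29 compact ones of -0.53. By class the medians were 0.45 for H4, 0.10 for H3, -0.07 for H2B, -0.12 for H1 and -0.60 for H2A.

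At 80 and 100 µM the family lay close to DMSO. The median log2 ratios of the 53 members were -0.16 and -0.18 (all genes, -0.05 at both) and 0.04 and 0.08 after the offsets (all genes, -0.12 at both). At 80 µM no member was at least 2-fold above the DMSO mean (1.75% of genes) and HIST1H1E was at least 2-fold below (4.18%). At 100 µM HIST2H4B was at least 2-fold above (1.4%) and HIST1H1E below (3.86%). H4 was the class furthest above DMSO in summed TPM at these doses (1.73 and 1.38 times the DMSO mean), at 152 and 121 against 82.7 to 101 in DMSO, and HIST2H4A supplied 54.4 and 42.7 of that TPM.

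No member had a dose slope that passed the test. In edgeR's fit of a log2 slope for each 20 µM step, taken inside the lenvatinib libraries, 0 of 53 were called, against 0.0% of genes in each direction. All 53 slopes were negative, with a median of -2.04 (all genes, 0.06). The members that pass the filter only through the 60 µM library had to be high at that dose, which lies below the middle of the range. Without the 60 µM library the median over 34 members was -0.27 (all genes, 0.04), and over all libraries and 53 members with the GC slope as a covariate the median was 0.34 (all genes, -0.05). The sign of the median thus turned with the covariate.

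The regulators of histone mRNA did not move as one at 60 µM. NPAT and CASP8AP2 (FLASH), which build the histone locus body, had no read in the 60 µM library. NPAT measured 0.761, 4.13, 10.97 and 1.81 CPM in DMSO1 to DMSO4, had no read at 40 µM either, and measured 4.59 and 4.10 at 80 and 100 µM. CASP8AP2 measured 0.471, 3.71, 14.7 and 0.981 CPM in DMSO, 0.0855 at 40 µM, and 3.57 and 3.12 at 80 and 100 µM. Both transcripts are poor in GC (37.4% and 37.2%), and both were highest in DMSO3, the library with the lowest GC slope. SLBP, the stem-loop binding protein, measured 36.1, 39.3, 51.1 and 38.6 CPM in DMSO, and 29.7, 8.36, 45.4 and 47.7 at 40, 60, 80 and 100 µM. It was lowest where the histone transcripts were highest. LSM10 and LSM11, the U7-specific ring proteins, measured 104 and 18.2 CPM at 60 µM, against 34.7 to 98.2 and 7.71 to 13.5 in DMSO.

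Of the lists around the family, only single genes passed, against 1.48% of all genes higher and 1.8% lower in the GC-adjusted fit and none in the unadjusted one. Of 10 genes of histone transcription, none was called without GC adjustment and 1 with it: E2F1, an activator of S-phase genes, which was higher by 0.56 ± 0.11 (log2, SE, adjusted p = 0.0356 in edgeR). Of 22 genes of histone mRNA processing and decay, 1 was called with GC adjustment: MIF4GD, an SLBP-interacting translation factor, at 0.72 ± 0.15 (log2, SE, adjusted p = 0.0442 in edgeR). E2F1 measured 211, 143, 93.8 and 182 CPM in DMSO and 390, 953, 198 and 183 at 40, 60, 80 and 100 µM; MIF4GD measured 8.33 to 19.5 in DMSO and 30.5, 54.9, 18.5 and 20.1. At 80 and 100 µM both lay near or within the DMSO range on unadjusted CPM. Both calls were lost when any 1 DMSO library or the 80 or 100 µM library was left out, and held without the 40 or 60 µM library. With no filter the adjusted p was 0.0556 for E2F1 and 0.0630 for MIF4GD in edgeR. The 18 chaperones of chromatin assembly and the 36 DNA replication genes of S phase had 0 called in either fit. Summed TPM of those replication genes was 3492 ± 485 in DMSO (SD, n = 4), and 2833, 2238, 3895 and 3761 at 40, 60, 80 and 100 µM, lowest in the library where the histone genes were highest. Single genes went both ways there. On CPM, CDT1 (64.9% GC), POLD1 (65.0%) and MCM5 (57.0%) were 4.65, 3.72 and 2.73 times the DMSO mean at 60 µM. POLA1 (42.9%), RRM1 (43.5%) and MCM6 (43.1%) were 0.00811, 0.0485 and 0.0744 times it. The part of GC content in this sum was not tested.

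Variant histones, which have poly(A) tails, stayed nearer their DMSO levels at 60 µM. Of 12, 10 were tested and 0 were called in either fit, against 1.48% and 1.8% of genes with GC adjustment. Their summed TPM was 3059 ± 320 in DMSO (SD, n = 4) and 2463 at 60 µM. H2AFZ measured 305 to 433 CPM in DMSO and 330 at 60 µM, H3F3B 104 to 136 and 139, and CENPA, the centromeric H3, 15.3 to 24.0 and 21.7. H3F3A (228 to 304 in DMSO) was at 151 and H1F0 (96.3 to 115) at 53.2. The GC-rich H1FX (68.6% GC) and H2AFX (66.4% GC) were above the DMSO range at 60 µM, at 1796 against 290 to 731 and at 554 against 121 to 292. So was H2AFJ, with 42.6% GC, at 145 against 36.5 to 89.95. H2AFX is among the 28 other genes that hold the stem-loop letters, and it is known to give both kinds of 3′ end.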

How the data were processed

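The read counts and TPM values were deposited by the authors in 1 table, as its column names say, per the file headers: whole-number counts per gene with no normalization, and TPM values scaled for gene length. The submitters' processing notes name FastQC, HISAT2, StringTie and bedtools and the GRCh38 build, with no version or role. How RNA was selected and whether strand was kept is not given in the sources used here. Another 8 columns of FPKM were not used.

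Counts were tested in R 4.3.3 with edgeR 4.0.16 (TMM scaling, robust quasi-likelihood test) for the 11827 genes whose CPM averaged 1 or more over all 8 libraries. p-values were Benjamini-Hochberg adjusted over all of them, and an adjusted p under 0.05 was a call. A count of 0 allows up to 3 reads, so limits run from 0.0802 to 0.295 CPM and cover counting error only. CPM in the text are TMM-scaled, except the limits and the filter. Log2 ratios of single libraries used CPM + 0.5.

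The GC slope of a library is the slope, over tested genes outside the family, of its log2 deviation on the GC content of the longest GENCODE 29 transcript. It was a covariate in the GC-adjusted fit, and offsets smooth in GC content and transcript length were an alternative. Others were DESeq2 1.42.0, limma-voom (limma 3.58.1), other scalings and filters, a replicate block, left-out libraries, and the 80 and 100 µM libraries alone. The fits were tested on simulated data. Sequences came from GENCODE 29 and RefSeq, and figures were drawn with matplotlib 3.10.9 under Python 3.11.15.

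Named are the 2 members of each class with the highest mean TPM, called members, up to 8 members with all lenvatinib libraries on 1 side of the DMSO range, the members known to be polyadenylated, and fixed regulators and variants. Other names (such as HIST1H1T and the genes under a fold limit) were chosen after their values were seen. The members and lists were chosen with earlier results of these data known.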

Additional observations from a re-analysis of the deposited data

Results flagged for a closer look

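For the 17 named members and the 6 sums (all members and the 5 classes), each arm of 4 libraries was checked for a library far from the others: one whose gap to its nearest neighbour, divided by the range of the 4, exceeds Dixon's 95% critical value for 4 samples. Among replicates of a single condition, chance gives this in about 5% of groups. The lenvatinib arm holds 4 different doses, so that rate does not apply to it. The members and sums also share the same libraries and are not independent checks. In the lenvatinib arm 14 of 17 members and 6 of 6 sums passed the critical value, each time through the 60 µM library. The choice of named members used levels that include this library, and HIST1H3C and HIST4H4 pass the filter only through it. Among the 15 that pass without it, 12 were so marked. In the DMSO arm 1 of 17 members and 1 of 6 sums did.

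In CPM, the 60 µM values so marked were 86.1 for HIST1H1E, 191 for HIST2H2AA3, 187 for HIST2H2AA4, 43.9 for HIST1H2BC, 61.9 for HIST1H2BD, 13.7 for HIST1H2BH, 47.3 for HIST1H2BJ and 86.7 for HIST2H2BE. They were 97.8 for HIST1H3B, 104 for HIST1H3C, 78.5 for HIST1H3H, 63.1 for HIST1H4K, 89.1 for HIST2H4A and 31.2 for HIST4H4. HIST1H1C, HIST1H2AC and HIST1H2BK, all from the list with polyadenylated forms, were not marked. In summed TPM, the 60 µM values were 5110 for all members, 509 for H1, 1559 for H2A, 1076 for H2B, 1097 for H3 and 869 for H4. In DMSO, HIST1H3C was marked in DMSO1 (1.27 CPM), and summed H4 TPM in DMSO2 (101).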

How the results depend on the processing

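Without GC adjustment, 0 members were called in any alternative, and 0 genes in all except DESeq2 (94) and GC and length offsets (19). All 53 members, of which 34 pass the filter without the 60 µM library, had positive fold changes under TMM, library totals and DESeq2 size factors. The median of all genes was -0.11, -0.20 and -0.09. With the 80 and 100 µM libraries alone the log2 fold changes turned negative: the members' median to -0.035, HIST1H1C to -0.13, HIST1H1E to -1.59, HIST2H2AA3 to -0.84, HIST2H2AA4 to -0.83, HIST1H2BC to -0.53, HIST1H2BJ to -0.17, HIST1H2BK to -0.069, HIST2H2BE to -0.18 and HIST1H4K to -0.58. With offsets HIST2H2AA3 (-0.0065) and HIST1H2BK (-0.044) did. Leaving out 1 library gave -0.13 to 3.69 for HIST1H1E, -0.28 to 1.73 for HIST2H2AA3, -0.28 to 1.71 for HIST2H2AA4 and -0.22 to 1.25 for HIST2H2BE, each lowest without the 60 µM library.

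With the GC covariate, the count over all genes was 388, and it was 2484 with 80 and 100 µM alone, 2048 in DESeq2, 1158 with offsets, 1008 with DESeq2 size factors, 830 in limma-voom, 666 with library totals, 253 with no filter, and 0 (without 80 µM) to 2767 (without 60 µM) with 1 library left out. Members called were 4 with 80 and 100 µM alone, 1 in DESeq2, and 0 to 4 with 1 library left out. HIST1H2BC turned positive with offsets (0.059), totals (0.044), limma-voom (0.21) and the replicate block (0.013), HIST2H2BE with offsets (0.040) and totals (0.061), and HIST4H4 with DESeq2 size factors (0.018), offsets (0.16) and totals (0.091). HIST1H4K turned negative with 80 and 100 µM alone (-0.073) and with the block (-0.0037). With 1 library left out the ranges that crossed 0 were -0.046 to 0.30 for the members' median, -0.052 to 0.20 for HIST1H1C, -0.60 to 0.39 for HIST1H2BC, -0.062 to 0.40 for HIST1H2BJ, -0.33 to 0.14 for HIST2H2BE, -0.17 to 0.30 for HIST1H4K and -0.54 to 0.24 for HIST4H4. The median dose slope turned to 0.34 with the covariate.

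Against the DMSO mean, the summed member level on CPM in place of TPM was 1.56, 8.88, 0.958 and 0.937 at 40, 60, 80 and 100 µM. Without the members that have polyadenylated forms it was 10.1, 1.09 and 0.964 in TPM at 60, 80 and 100 µM. The cause of each of these changes was not tested.

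Deviations of libraries with the same replicate number in the sample titles correlated at 0.627, -0.464, 0.843 and -0.608. These signs followed the GC slopes: positive where both libraries were high or both low for their arm, and negative otherwise. Whether the replicate number pairs the libraries was therefore not tested apart from GC slope. A fit with the number as a replicate block and the GC slope called 227 genes, no member among them, and E2F1 (adjusted p = 0.0704) and MIF4GD (adjusted p = 0.0887) were not called in this edgeR fit. Each dose has 1 library, the 60 µM library is the shallowest and has the steepest GC slope, and dose, depth and GC slope cannot be told apart in it.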
